A study of Homo sapiens with 12 samples.

Results

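NACC1 and NACC2 are paralogous human genes, and the regions described here are those the authors listed for RNA crosslinked to and pulled down with AGO2. They were chosen by the measured values themselves: both genes were selected for the number of regions they held in the lists described below, so every number from those lists is given as a description and none is tested. A region was a member when it overlapped the RefSeq span of NACC1 or NACC2 on the strand of the gene. There were 31 such regions, 19 of the 2921 in the 5xA list and 12 of the 1190 in the WT list. NACC1 held 16 of them (10 with 5xA and 6 with WT) and NACC2 held 15 (9 with 5xA and 6 with WT).

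The study used eCLIP, in which ultraviolet light fixes a protein to the RNA it touches, an antibody pulls the protein down and the RNA fragments that come with it are sequenced. All 12 samples came from HCT116, an established human colorectal carcinoma line, grown for 48 h and crosslinked at 400 mJ/cm2. They make 6 groups of 2, an immunoprecipitate (IP) and an input for each of 3 genotypes, which are FH-AGO2_5xA, FH-AGO2_WT and AGO2_KO, the last without AGO2. The antibody was against FLAG in every group, the knockout included. 5xA is a form of AGO2 in which a cluster of residues that are normally phosphorylated is changed to alanine. The labels do not say how the tagged proteins were expressed, whether each line was 1 clone or how the knockout was used to make the lists. There are 2 lists of regions, each merged by the authors over the 2 IP replicates of 1 genotype. There is therefore no spread between replicates to set any difference against, and the depth behind a region is unknown. Of 12 colorectal epithelial markers, CLDN4 (1 region with 5xA and 2 with WT) and VIL1 (1 and 0) held regions, as did COL1A1 (4 and 2) of 7 fibroblast markers and 0 of 6 blood markers, beside 7.44% of all protein-coding genes with a 5xA region and 3.35% with a WT region. A region marks RNA listed as bound by AGO2 and not how much of that RNA a cell holds, so these counts do not check the cell type.

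AGO2 carries a microRNA, and pairing of the microRNA's seed with a target, most often in the 3′ untranslated part of an mRNA, brings the silencing machinery to that mRNA. NACC1 and NACC2 encode nuclear proteins with a BTB domain at one end, through which they pair with themselves and with other BTB proteins, and a BEN domain near the other, which binds DNA. Both repress transcription through histone deacetylase complexes. NACC1 is known for its high level in several carcinomas, and NACC2, also called RBB, recruits the NuRD complex and represses the p53 ligase gene MDM2. The sequence beneath the regions was not analysed here, so no microRNA site is named.

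The only regions of either gene outside the downstream 5 kb were 3 in the 5xA list, and 1 of these lay at a transcription start, that of NACC1. For that reason the 250 bases before the RefSeq start of NACC1 are shown, with the same stretch of NACC2, where neither list held a region near the start. The NACC1 stretch is chr19:13118014-13118263 on the plus strand and the NACC2 stretch chr9:136095290-136095539 on the minus strand (RefSeq, GRCh38.p14). The NACC1 start used here, 13118264, lies inside the RefSeq span, which begins at 13116852, whereas the NACC2 start is the upstream end of its span. Capitals mark the GC box, written GGGCGG or, on the other strand, CCGCCC, wherever these letters occur.
NACC1: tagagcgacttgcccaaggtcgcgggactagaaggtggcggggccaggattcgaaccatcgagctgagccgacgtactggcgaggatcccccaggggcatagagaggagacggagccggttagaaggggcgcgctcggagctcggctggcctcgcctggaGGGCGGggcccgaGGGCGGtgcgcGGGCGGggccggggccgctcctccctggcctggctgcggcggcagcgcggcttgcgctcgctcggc
NACC2: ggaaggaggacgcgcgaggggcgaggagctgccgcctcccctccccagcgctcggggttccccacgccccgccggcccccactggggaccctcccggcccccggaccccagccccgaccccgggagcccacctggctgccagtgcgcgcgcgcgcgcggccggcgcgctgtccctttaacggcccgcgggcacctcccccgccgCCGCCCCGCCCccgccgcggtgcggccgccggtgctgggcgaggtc
NACC1 has 3 GC boxes and 73.6% G and C in this stretch. NACC2 has 2 boxes, which overlap by 1 base, and 83.2% G and C. Of 15842 protein-coding genes with such a stretch 56.0% hold at least 1 GC box, and their median content of G and C is 62.4%. A match to these letters is a description and not a binding site.

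Both genes were in both lists, and both held many regions. Among 20052 protein-coding genes, 7.44% held a 5xA region, 3.35% a WT region and 2.99% a region in both lists. A bound gene held a median of 1 region in either list. NACC1 held 10 regions with 5xA and 6 with WT, and these covered 2018 and 1117 bases. NACC2 held 9 regions with 5xA and 6 with WT, which covered 1515 and 1006 bases. At least 9 regions, the number of NACC2, were found in 18 of the 1492 genes bound with 5xA (1.21%), and at least 6 in 18 of the 672 genes bound with WT (2.68%). With 5xA, 7 genes held more regions than NACC1 and 13 held more than NACC2. With WT, 11 genes held more than either. Both genes were picked for these numbers, so their place near the top is not a finding.

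**Figure D1:**
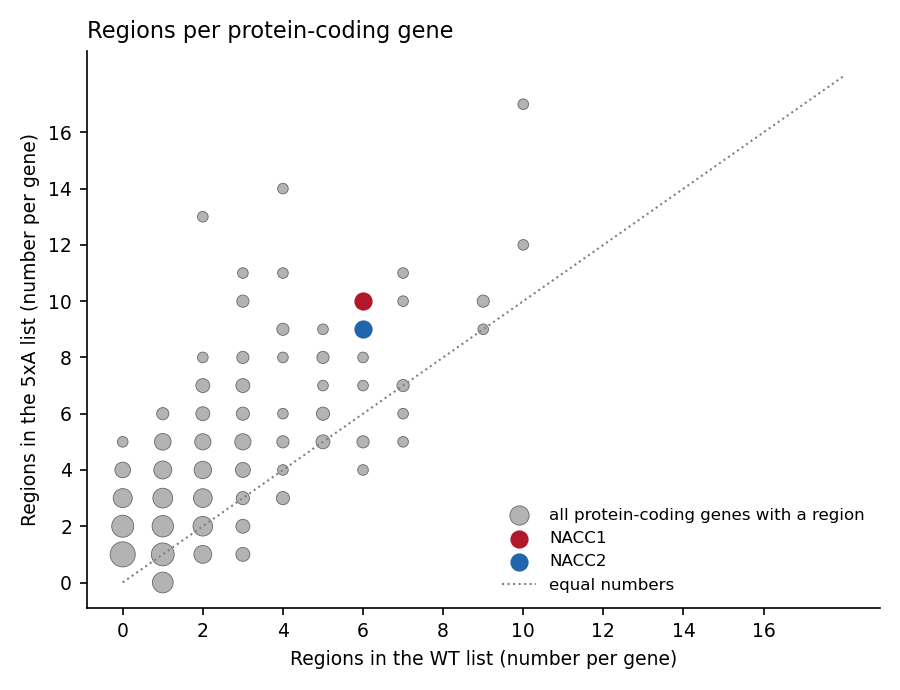
Number of regions per protein-coding gene in the WT list (horizontal) and the 5xA list (vertical). Grey points are numbers held by at least 1 gene and grow with the number of genes on a log scale, and the dotted line marks equal numbers. NACC1 (red) lies at 6 and 10 and NACC2 (blue) at 6 and 9, both above the line.

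The count of NACC1 depended on how finely the 5xA regions were divided. Its 10 regions with 5xA became 5 when neighbours within 50 bases were joined, against 7 for NACC2, so the order of the paralogs turned round. After joining, 30 genes held more 5xA regions than NACC1 and 9 held more than NACC2. The covered bases moved little, to 2137 in NACC1 and 1532 in NACC2 with 5xA. With WT, joining left 5 regions in each gene. As deposited, the NACC1 regions covered 503 more bases than those of NACC2 with 5xA and 111 more with WT.

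Both genes had more regions and more covered bases in the 5xA list than in the WT list. NACC1 had 1.67 times as many regions and 1.81 times as many covered bases with 5xA as with WT, and NACC2 1.5 and 1.51 times. The whole 5xA list had 2.45 times as many regions and 2.35 times as many bases as the WT list. The whole lists include genes with regions in the 5xA list only, and both genes were picked for their regions in these lists. Their lower ratio is therefore not a finding. Over the 28 genes with at least 5 regions in each list, the median ratio was 1.18 for regions (0.714 to 1.80) and 1.5 for bases (0.889 to 2.04). NACC2 was close to the median of these genes in bases and above it in regions, and NACC1 was above it in both measures.

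In NACC1 (gene ID 112939, chr19:13116852-13141147, plus strand) all but 1 region lay in the last 2659 bases of the gene. With 5xA, 9 regions stretched from 2659 to 18 bases before the downstream end of the RefSeq span. With WT, all 6 lay from 2373 to 137 bases before it. The 5xA regions covered 1886 of the 2642 bases between the first and the last (71.4%), and the WT regions 1117 of 2237 (49.9%). The 5xA regions lay close together, with gaps of 4, 369, 148, 120, 36, 45, 16 and 18 bases in the direction of transcription. With WT the gaps were 307, 19, 500, 128 and 166 bases. The median gap in this cluster was 40.5 bases with 5xA and 166 bases with WT. Over the whole span of NACC1 it was 45 and 166 bases. Between neighbouring regions of all bound protein-coding genes, also over whole spans, the median was 219 and 240 bases.

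The widest region of either gene was the second of the NACC1 cluster. With 5xA it ran from 13138625 to 13139125, 501 bases, and it contained the whole WT region from 13138774 to 13139086, 313 bases. A separate 5xA region from 13138488 to 13138620 lay 4 bases upstream of it and met no WT region. The next pair almost coincided, from 13139495 to 13139722 with 5xA and from 13139504 to 13139716 with WT, with midpoints 1.5 bases apart. Just upstream of that pair lay the only WT region of the 2 genes that no 5xA region overlapped. It was 91 bases wide, from 13139394 to 13139484, and ended 10 bases before the 5xA region of the pair. A 5xA region of 119 bases, from 13139871 to 13139989, had no WT counterpart either and was 154 bases from the nearest one.

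Towards the end of NACC1 the regions of the 2 lists differed in their edges. A 5xA region from 13140110 to 13140372 (263 bases) contained a WT region from 13140217 to 13140291 (75 bases), the narrowest of either gene, which took up 28.5% of it. The following 5xA region, from 13140409 to 13140633 (225 bases), contained a WT region of 124 bases from 13140420. The last WT region, from 13140710 to 13141010 (301 bases), was met by 2 5xA regions, from 13140679 to 13140875 (197 bases) and from 13140892 to 13141012 (121 bases). What the WT list gives as 1 region was thus 2 in the 5xA list, divided by a gap of 16 bases. The last 5xA region, from 13141031 to 13141129 (99 bases), lay 20 bases beyond the WT region and 18 bases from the gene end.

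**Figure D2:**
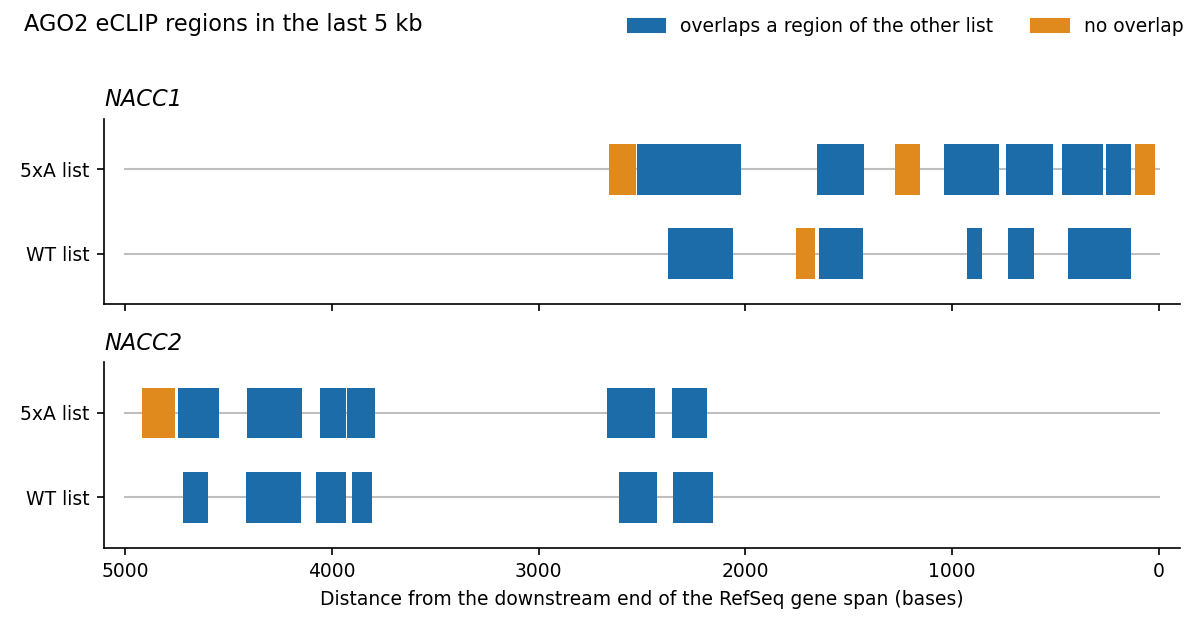
Regions of NACC1 (top) and NACC2 (bottom) in the last 5 kb of each gene, in the direction of transcription from left to right. The horizontal axis is the distance in bases from the downstream end of the RefSeq span, and each gene has its 5xA list above its WT list. Blue regions overlap a region of the other list and orange ones do not. The NACC1 regions reach to within 18 bases of the end, while those of NACC2 stop 2184 (5xA) and 2159 (WT) bases before it, with a wide gap inside the cluster.

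The tenth 5xA region of NACC1 lay at the other end of the gene. It ran from 13118319 to 13118450 (132 bases) and began 55 bases downstream of the RefSeq transcription start at 13118264, just past the promoter stretch printed above. The next 5xA region was 20037 bases away, and the nearest WT region lay 20323 bases away. Of all 5xA regions, 54 (1.85%) began within the 200 bases downstream of a RefSeq start of a protein-coding gene, and of all WT regions 14 (1.18%) did. No other region of NACC1 or NACC2 was among them. The first WT region of NACC1 was 20510 bases from the start.

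In NACC2 (gene ID 138151, chr9:136006537-136095289, minus strand) the cluster was as long but was set back from the gene end. With 5xA, 7 regions stretched from 4914 to 2184 bases before the downstream end, and with WT 6 regions from 4718 to 2159 bases before it. Over the 28 genes with at least 5 regions in each list, the region nearest to the downstream end was a median of 147 bases away with 5xA and 144 bases with WT. In 3 of them it was farther than in NACC2 in the 5xA list, and likewise 3 in the WT list. NACC1, at 18 bases with 5xA and 137 bases with WT, was nearer than 25 and 14 of these genes. The table of genes gives 1 span a gene and no exons, so shorter transcripts that end within the span could not be told apart from an empty stretch.

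The NACC2 cluster was made of 2 groups of regions, and both groups were present in both lists. The upstream group held 5 regions with 5xA and 4 with WT, between 136010326 and 136011451. The downstream group held 2 in each list, between 136008696 and 136009203. Between the groups lay 1122 bases without a region with 5xA and 1194 bases with WT. Because of this gap the 5xA regions covered 47.1% of the 2731 bases of the cluster and the WT regions 39.3% of 2560 bases, less than in NACC1. The other gaps were 13, 136, 86, 4 and 84 bases with 5xA and 184, 74, 26 and 76 bases with WT.

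In NACC2 the regions of the lists could be set side by side throughout. Each of the 6 WT regions met 1 5xA region, and no region was split. The midpoints of these pairs were 2.0 to 32.0 bases apart, against 1.5 to 55.0 bases in the 4 pairs of NACC1 in which 1 region met 1 region. The closest pair in width ran from 136010681 to 136010945 with 5xA (265 bases) and from 136010685 to 136010950 with WT (266 bases) and shared 261 bases. At the end nearest to the gene's 3′ end, regions of 169 bases with 5xA (136008721 to 136008889) and 193 bases with WT (136008696 to 136008888) shared 168. The 5xA region was the wider in 3 of these 6 pairs (198 against 121, 136 against 98, and 230 against 184 bases) and the WT region in 3 (129 with 5xA against 144 with WT, and the 2 pairs just given). In NACC1 the 5xA region was the wider in each of those 4 pairs.

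The 3 NACC2 regions found with 5xA only were all upstream of the WT regions. The first, from 136011293 to 136011451 (159 bases), bordered the cluster and lay 37 bases from a WT region. The others, from 136050016 to 136050122 (107 bases) and from 136050455 to 136050576 (122 bases), lay together, 332 bases apart, in the middle of the gene. They were 43479 and 43918 bases from the downstream end, and 38760 and 39199 bases from the nearest WT region. The first of them in the direction of transcription began 44713 bases after the transcription start. Whether this place is exonic or intronic could not be read from the table of genes. The lncRNA gene LOC124902307 lies within the NACC2 span, at 136014513 to 136016099, and no region overlapped it. None of the 31 regions overlapped a second annotated gene, and neither span held a region on its other strand.

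Sharing between the lists was alike in number. Of the 5xA regions, 6 of 10 in NACC1 (60%, exact 95% Clopper-Pearson interval 26.2 to 87.8) and 6 of 9 in NACC2 (66.7%, 29.9 to 92.5) overlapped a WT region by at least 1 base, against 32.3% of the whole 5xA list. The whole list includes regions of genes without a WT region, such as the 714 genes with 1 5xA region and 0 WT regions. Both genes were picked for their regions in these lists, so the higher share is not a finding. Of the WT regions, 5 of 6 in NACC1 (83.3%, 35.9 to 99.6) and 6 of 6 in NACC2 (100%, 54.1 to 100) overlapped a 5xA region, against 81.3% of the whole WT list. The intervals cover counting error only and treat neighbouring regions as independent, and those of the 2 genes overlap widely. When an overlap of at least 50% of both regions was asked for, 4 of 10 NACC1 and 6 of 9 NACC2 regions of the 5xA list were shared.

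The overlap was also counted in bases. The lists had 1010 bases in common in NACC1, with 1008 further bases in the 5xA list and 107 in the WT list. In NACC2 they had 951 bases in common, with 564 further bases in the 5xA list and 55 in the WT list. The common bases made up 50% of the NACC1 and 62.8% of the NACC2 bases of the 5xA list, and 90.4% and 94.5% of those of the WT list. Relative to all bases covered by either list the common part was 47.5% in NACC1 and 60.6% in NACC2, with a median of 49.1% over the 600 genes in both lists (quartiles 31.5% and 70.5%). Over the 28 genes with at least 5 regions in each list the median was 54.7% (34.2% to 92.7%), and 21 of them were above NACC1 and 11 above NACC2. In the last 5 kb alone they were 50.7% and 70.9%.

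**Figure D3:**
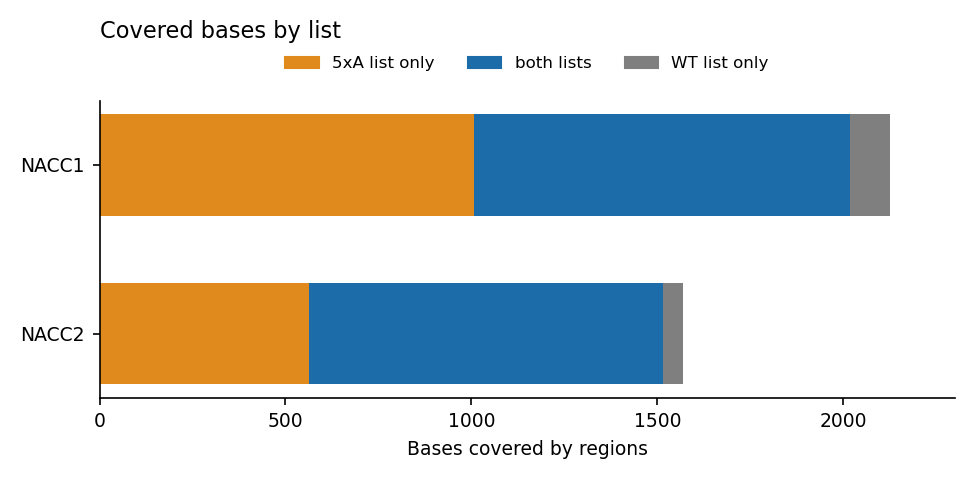
Bases covered by regions in NACC1 (top) and NACC2 (bottom), divided into bases of the 5xA list alone, bases of both and bases of the WT list alone. The common part is of like size, 1010 and 951 bases, and the part found with 5xA only is larger in NACC1, 1008 against 564 bases.

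The regions of both genes were wide for their lists. Both genes were picked for their regions in these lists, so this is not a finding. Of the genes bound, 63.6% with 5xA and 68.9% with WT held 1 region. Among genes named here with 10 5xA regions, KDM6B covered 2025 bases and ZBTB34 1260, against 2018 in NACC1. With 9, HIC2 covered 1472 bases and TNRC6A 1223, against 1515 in NACC2. With 5xA the median width was 165 bases in NACC1 (99 to 501) and 159 bases in NACC2 (107 to 265), against a median of 104 bases and an upper quartile of 153 bases in the whole list. In NACC1 9 of 10 and in NACC2 9 of 9 of these regions were wider than the list's median, and 5 of each were wider than its upper quartile. With WT the median was 168.5 bases in NACC1 (75 to 313) and 164 bases in NACC2 (98 to 266), against 114 bases in the whole list. Of the WT regions 4 of 6 in NACC1 and 5 of 6 in NACC2 were wider than the list's median. Regions found with 5xA only had the lower median width, 125.5 bases against 226.5 bases for shared ones in NACC1, and 122 against 183.5 bases in NACC2. The widths overlapped. A 5xA-only region of 133 bases in NACC1 was wider than a shared one of 121. In NACC2 one of 159 bases was wider than shared ones of 129 and 136. The medians of the whole 5xA list have the same order, 93 and 145 bases, and a wide region has more bases with which to meet another.

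**Figure D4:**
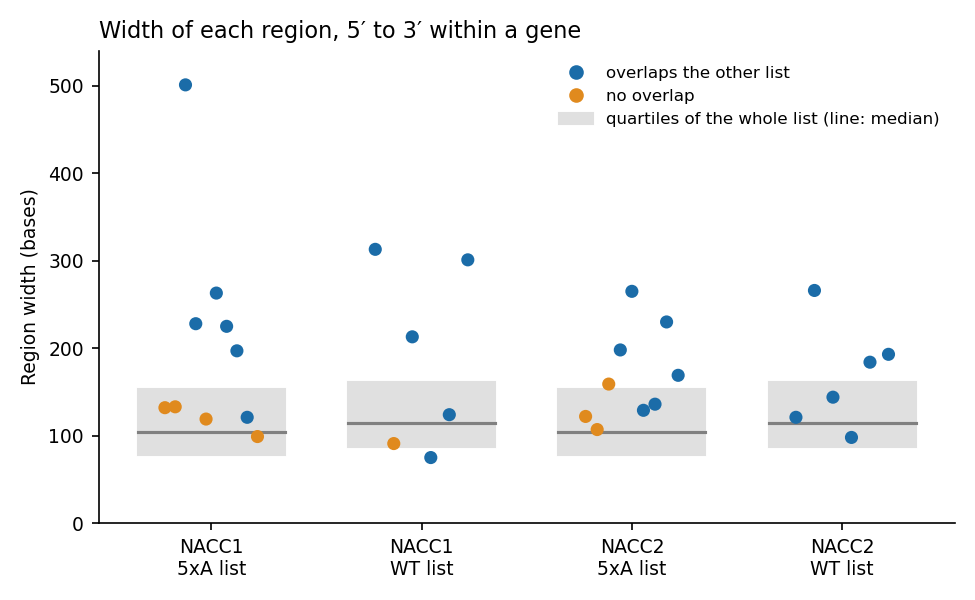
Width in bases of each region of NACC1 and NACC2, with the 5xA list left of the WT list, and the points of a gene in 5′ to 3′ order. Grey boxes give the quartiles and the line the median of the whole list. The 501-base 5xA region of NACC1 stands above all others, and the 5xA-only regions (orange) lie between 99 and 159 bases.

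Within 5 kb of the downstream gene end lay 9 of 10 5xA regions of NACC1 and 7 of 9 of NACC2, against 81.9% of the 5xA regions in protein-coding genes. All 6 WT regions of each gene did, against 84.1% of the WT regions in such genes. The window of 5 kb hides the difference between the paralogs. Within 2 kb lay 7 of 10 5xA and 5 of 6 WT regions of NACC1 and 0 of 9 and 0 of 6 of NACC2. The densest 3 kb of NACC1 held 9 regions with 5xA and 6 with WT, and that of NACC2 held 7 and 6. With 5xA 2 genes had more in such a window than NACC1 and 10 had more than NACC2, and with WT 5 had more than either. Both genes were picked for their numbers of regions, so these places are not a finding. By length of the whole gene NACC1 was the denser, with 4.12 regions per 10 kb with 5xA and 2.47 with WT, while NACC2, with a span of 88753 against 24296 bases, had 1.01 and 0.676. The numbers of regions were close, so this contrast reflects the length of the spans, introns included. Without exons in the table of genes, a density over the mature mRNA could not be given.

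Few genes had like numbers of regions. Both genes were picked for high numbers, which few genes reach, so this is not a finding. Likeness was taken as numbers of 5xA and WT regions each within 1 of those of the gene, over these 2 lists, and genes were ordered by the difference in covered bases. For NACC1 there were 4 such genes. ZC3HAV1L (11 regions with 5xA and 7 with WT) differed by 261 bases and KDM6B (10 and 7), which encodes an H3K27 demethylase, by 356 bases. NACC2 was the third, at 614 bases, and TNRC6A (9 and 5), which encodes a GW182 scaffold of the silencing machinery, the fourth, at 1253 bases. For NACC2 there were 6, and among the nearest were NACC1, TNRC6A, RREB1 (8 and 5), a zinc finger transcription factor gene, and MDM2 (8 and 5). These differed from NACC2 by 614, 639, 751 and 827 bases.

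Of the 9 genes with a BEN domain on the list used, NACC1 and NACC2 were chosen for their regions. The other 7 (BEND genes and BANP) held no region in either list, beside 7.44% of all protein-coding genes with a 5xA region and 2.99% in both lists. Some genes of the complexes through which the paralogs act were bound. Of 15 NuRD genes 4 held a 5xA region, and the helicase gene CHD4 alone held a WT region too (139 bases with 5xA and 119 with WT), beside 7.44% and 3.35% of all protein-coding genes. GATAD2A, MBD3 and MTA2, which encode other NuRD subunits, held 1 each with 5xA and none with WT. Of 20 genes of other histone deacetylase corepressor complexes 3 held a 5xA region and 2 a WT region, beside the same 7.44% and 3.35%. Among them, the scaffold gene SIN3B held 2 regions with 5xA and 1 with WT, and BCORL1 held 1 and 0.

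Some other genes with a BTB domain held regions. Of 47 genes of BTB zinc finger proteins, most of them named ZBTB, 11 held a 5xA region and 8 of these (17.0% of the 47) a WT region too. Of all protein-coding genes 7.44% held a 5xA region and 2.99% a region in both lists. The leading members were ZBTB20 (11 regions with 5xA and 3 with WT), ZBTB34 (10 and 3), HIC2 (9 and 9), ZBTB7B (8 and 3), ZBTB7A (7 and 3) and ZBTB47 (2 and 2). KLHL genes encode BTB proteins that serve as adaptors of the cullin CUL3. The list used for them also held KEAP1, CUL3 and RBX1, of which CUL3 and RBX1 are not BTB genes. Of its 40 genes 6 held a 5xA region and 2 of these (5.00% of the 40) a WT region too, beside the same 7.44% and 2.99%. KLHL28 held 4 regions with 5xA and 1 with WT, KLHL15 2 in each, and KLHL13, KLHL18, KLHL21 and KLHL23 1 each with 5xA. The strand of KLHL23, VIL1 and COL1A1 is not in the tables used, so their regions were counted on either strand. The lists were put together with earlier results of these data known, and no test was made on them.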

How the data were processed

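Each region list came as a deposited 6-column file with chromosome, start, end, name, score and strand. The deposited score is 0 in every region and was not used, and the authors' start and end positions, deposited 0-based, are given 1-based here. Per the submitters' processing notes, reads were handled with cutadapt 1.9.1 and TopHat2 on hg38. The sources used here name no peak caller, threshold or merging rule. The inputs and the knockout IPs, 8 samples, were not analysed here.

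Gene spans came from a RefSeq table of GRCh38.p14, which shares the coordinates of hg38. Strand came from a RefSeq table of promoter windows, and genes without a strand there were counted on either strand. Overlaps of at least 1 base on the same strand were counted in Python 3.11.15, checked against bedtools 2.31.1 (944 and 967 shared regions by both) and tested on simulated data. Distances ran from the region's midpoint or edges to the downstream end of the span. Named genes are NACC1, NACC2, up to 6 bound members of each list and up to 5 genes most like each paralog, and a few that this rule gives are not reported here. Members, lists and rules were chosen with earlier results of these data known. Alternatives joined neighbours, set a minimum width, changed the span, the strand, the overlap rule, the end window and the measure of distance. A search for microRNA seed matches needs the sequence of the regions and was not run, nor was an alignment of the proteins.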

Additional observations from a re-analysis of the deposited data

How the results depend on the processing

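Of 64 values under the alternatives, 52 moved by at most 1.5 times (for shares, stayed within the exact 95% interval). These intervals rest on few regions and are wide, so a share could move far and still be counted among the 52. The share of NACC1 5xA regions, for example, went from 60% to 40% when an overlap of 50% of both regions was asked for. Joining neighbours within 50 bases gave NACC1 5 regions with 5xA, and its WT regions a median width of 301 bases. Keeping regions of at least 100 bases left 4 of the 6 NACC1 WT regions, with a median of 257 bases. Under both of these, and when regions within 50 bases counted as shared, 100% of the NACC1 WT regions were shared. Within 2 kb of the downstream end lay 0% of the NACC2 regions of either list. Between midpoints, which adds the widths by construction, the median spacing was 311 bases with 5xA and 378.5 with WT in NACC1, and 325.5 and 279 in NACC2. No alternative changed the numbers of regions through a wider span or the other strand. No paired analysis was possible because each list pools both replicates, and for the same reason no replicate could be left out. Depth is unknown, so an absent region is only one that is not listed.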
